A study of Homo sapiens with 12 samples.

Results

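Gene expression after TRAIL alone was compared with that of untreated cells in 3 human soft tissue sarcoma cell lines, 6 h after the ligand was added. The 6 arrays were chosen by their labelled agent from the 12 arrays of the series, as 3 arrays of cells given TRAIL only (50 ng/ml) and 3 arrays of untreated cells, and they were paired by cell line. By their labels the rhabdomyosarcoma line was A-204, the leiomyosarcoma line SK-LMS-1 and the epithelioid sarcoma line VA-ES-BJ, and none of the 6 arrays came from cells given taurolidine. The other 6 arrays came from the same lines given both agents (TRAIL at 50 ng/ml with taurolidine at 250 µmol/l) or taurolidine alone (250 µmol/l), and enter below as a second pair with and without TRAIL. Each line had 1 array per treatment, so a change within a line had no replicate, and means over lines rest on n = 3. Nothing in the labels says that arrays of a line came from separate cultures.

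TRAIL, encoded by TNFSF10, is a ligand of the tumour necrosis factor family. It binds the death receptors TNFRSF10A and TNFRSF10B, which recruit the adaptor FADD and caspase 8 and so start apoptosis through proteins already present in the cell. The decoy receptors TNFRSF10C and TNFRSF10D bind the ligand without a working death domain. The same receptors can also activate NF-kB and AP-1, transcription factors that induce their own inhibitors, chemokines and survival genes within hours.

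The values were array signals in the MAS5 unit, a linear brightness, and ratios below are log2 ratios of signals to which 11.8, the 10th percentile of the table, had been added. A gene was taken as well measured if its mean signal over the arrays compared was at least 546, which is 4 times the median of the table. Of 13 listed skeletal muscle markers, 1 was well measured over the 6 arrays, the slow troponin TNNT1. It was bright in A-204 (5882 with TRAIL, 5677 untreated) and above the limit in the other lines too. MYOD1 and MYOG, master regulators of skeletal muscle, had signals of 69.3 and 11.5 in A-204 with TRAIL, against 28.6 and 10.2 in untreated A-204, and DES, a muscle filament protein, had 201 with TRAIL and 132 in untreated cells. MYOD1, MYOG and DES were thus below the limit in A-204 and did not mark it as skeletal muscle. Of the smooth muscle markers, TAGLN, CNN1 and MYL9 were brightest in SK-LMS-1, whereas ACTA2 and MYH11 did not set it apart. TAGLN had 10220.3 with TRAIL and 9763 untreated in SK-LMS-1, against 4120 and 4245 in VA-ES-BJ. MYL9 had 2718 with TRAIL and 2669 untreated in SK-LMS-1, against 717 and 1115 in VA-ES-BJ. CNN1 passed the limit in SK-LMS-1 only (732 with TRAIL, 661 untreated). ACTA2 was dimmer in SK-LMS-1 (1335 with TRAIL, 1686 untreated) than in VA-ES-BJ (4737 with TRAIL, 4980 untreated), and MYH11 was below the limit in every line. KRT19, a keratin of epithelia, was bright in VA-ES-BJ (18439 with TRAIL, 16189 untreated). KRT8 was bright there (17987 with TRAIL, 16153 untreated) and above the limit in A-204 too (2618 with TRAIL, 2771 untreated). KRT18 was above it in every line. Of 10 tested epithelial markers, 3 were well measured in VA-ES-BJ and 6 in A-204. SMARCB1, whose loss is typical of epithelioid sarcoma, was dim in VA-ES-BJ (21.9 with TRAIL, 152 untreated). Its signals were 1090 with TRAIL and 1235 untreated in A-204, and 3795 and 3530 in SK-LMS-1.

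No gene passed the test when TRAIL was set against untreated cells over the 3 lines. With limma and Benjamini-Hochberg adjustment, 0 of 14221 genes passed 0.05 (0%), and the smallest adjusted p was 1.00. Before adjustment 563 genes (3.96%) had a p under 0.05, 141 higher (0.991%) and 422 lower (2.97%) with TRAIL, where 5% of the genes tested would be 711. In bulk RNA, a change in how many cells express a gene and a change in RNA per cell cannot be told apart. The intervals show how small the response was where it could be measured well. Of 9360 genes well measured over the 6 arrays, 8818 (94.2%) had a 95% confidence interval of the mean change that lay within 2-fold in both directions, and 7144 (76.3%) had one within 1.5-fold. The middle 90% of the mean changes ran from -0.27 to 0.23 on the log2 scale. Only 120 of these genes had a mean change of 1.5-fold or more and 12 of 2-fold or more.

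Within lines the shift was also small, and the lines differed in how many genes departed from it. Among 9072 well-measured genes of A-204, the median absolute change was 1.07-fold and the SD of the log2 ratio was 0.18, and 7 genes (0.0772%) differed by 2-fold or more, 6 higher (0.0661%) and 1 lower (0.011%) with TRAIL. Among 8806 genes of SK-LMS-1 the median absolute change was 1.08-fold and the SD 0.23, and 56 genes (0.636%) differed by 2-fold or more, 50 higher (0.568%) and 6 lower (0.0681%). Among 8963 genes of VA-ES-BJ the median absolute change was 1.11-fold and the SD 0.25, and 20 genes (0.223%) differed by 2-fold or more, 3 higher (0.0335%) and 17 lower (0.19%). At 1.5-fold A-204 had 72 such genes (0.794%), SK-LMS-1 232 (2.63%) and VA-ES-BJ 321 (3.58%). These are sizes, not tests, because a line had 1 array on each side.

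Taurolidine gives a scale for these numbers. Against the same untreated arrays, 875 of 8977 well-measured genes of A-204 (9.75%) differed by 2-fold or more. SK-LMS-1 had 540 of 8772 (6.16%) and VA-ES-BJ 595 of 8923 (6.67%). Well-measured genes were chosen anew for each pair of arrays, so these sets differ from those above. When TRAIL was added to taurolidine, cells given both agents were set against cells given taurolidine alone. They differed by 2-fold or more in 10 (0.116%), 7 (0.0812%) and 5 (0.0579%) genes of the same lines.

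**Figure D1:**
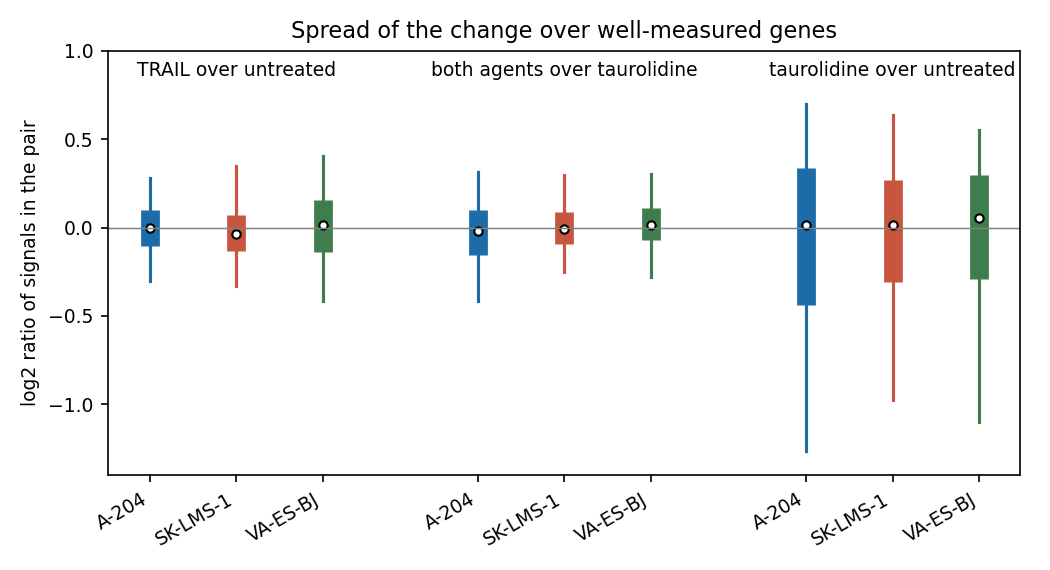
Spread of log2 signal ratios over well-measured genes for TRAIL over untreated, both agents over taurolidine, and taurolidine over untreated, in each line. Circles are medians, thick bars the middle 50% and thin bars the middle 90% of genes. The bars for TRAIL alone end between -0.42 and 0.40 in every line, whereas those for taurolidine reach down to between -1.26 and -0.98.

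The restriction to bright genes mattered because the ratio of dim genes scattered far more. Among genes of A-204 with a mean below the table median the SD of the log2 ratio was 1.01, and in the brightest class, above 64 times the median, it was 0.11. SK-LMS-1 had an SD of 1.04 in the dimmest class and 0.12 in the brightest. VA-ES-BJ had an SD of 0.99 in the dimmest class and 0.21 in the brightest. Of the genes below the limit of 546, between 13.2% (A-204) and 18.2% (SK-LMS-1) showed a 2-fold difference. In VA-ES-BJ the brightest class was also shifted as a whole, with a median ratio of 0.26 over 1352 genes, whereas A-204 had 0.045 and SK-LMS-1 -0.040.

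**Figure D2:**
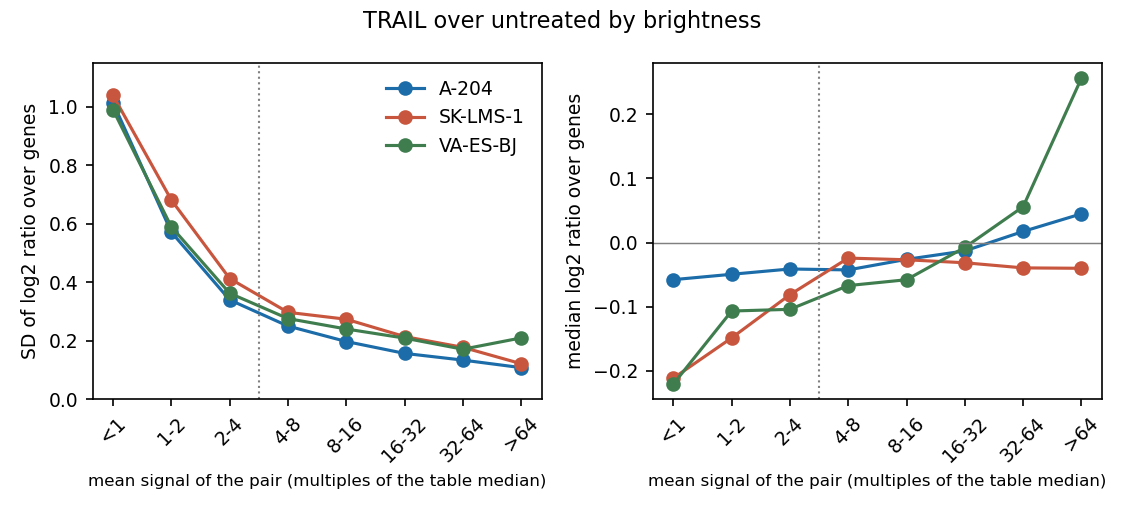
SD (left) and median (right) over genes of the log2 ratio of TRAIL over untreated, by mean signal of the pair in multiples of the table median, for the 3 lines. The dotted line marks the limit for well-measured genes; the SD falls from about 1.0 in the dimmest class to between 0.11 and 0.21 in the brightest, and the VA-ES-BJ median rises to 0.26 there.

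Genes of the receptor pathway differed little from their untreated levels in the probe set chosen for each, and further probe sets did not always match it. TNFRSF10B, which encodes death receptor 5, had signals of 6672, 5503 and 27862 with TRAIL in A-204, SK-LMS-1 and VA-ES-BJ, against 6719.7, 5641 and 21377 in untreated cells. Its mean change was 0.11 ± 0.11 (SE of the fit to all arrays, n = 3 lines). The TNFRSF10B ratio was 0.38 in VA-ES-BJ, beside -0.01 for A-204 and -0.04 for SK-LMS-1. Its other well-measured probe sets gave -0.30 and -0.03 in VA-ES-BJ. TNFRSF10A had 1286, 171 and 1688 with TRAIL, against 1157, 126 and 1532 untreated, so that it was dim in SK-LMS-1. The decoy receptor TNFRSF10D had a mean change of -0.02 ± 0.23 (SE of the same fit), while TNFRSF10C was below the limit in all 3 lines. The spread of all treatments over the lines enters that SE. In a fit of the 6 arrays alone the SE of TNFRSF10D was 0.082. TNFSF10, the gene of the ligand, was dim on all 6 arrays, at 223, 47.1 and 278 with TRAIL and 197, 43.4 and 251 untreated.

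Downstream of the receptors the mean differences of the chosen probe sets were also small. FADD averaged a change of 0.02 ± 0.18, and CASP8, the initiator caspase, 0.0074 ± 0.17 (SE, n = 3 lines). The SEs after ± here come from the fit to all arrays, so the spread of all treatments over the lines enters them. A fit of the TRAIL and untreated arrays alone gave SEs of 0.089 for FADD, 0.12 for CASP8 and 0.097 for MCL1. CFLAR, which encodes the caspase 8 inhibitor c-FLIP, had 2077, 5956 and 10514 with TRAIL in A-204, SK-LMS-1 and VA-ES-BJ, against 1875, 6176 and 9744 untreated. BID, which carries the signal to mitochondria, had a mean difference of 0.07 ± 0.10 and XIAP, an inhibitor of caspases, of -0.08 ± 0.11. BIRC2, a ubiquitin ligase of the receptor complex, had one of 0.18 ± 0.11, DIABLO, which antagonises such inhibitors, 0.11 ± 0.17, and MCL1, an anti-apoptotic BCL2 relative, 0.18 ± 0.22. The pathway genes taken whatever their change included 14 that were tested. In the chosen probe set of those well measured, none reached 1.5-fold in A-204 (11 genes, from -0.044 for BID to 0.19 for CASP8), SK-LMS-1 (9 genes, from -0.062 for FADD to 0.20 for MCL1) or VA-ES-BJ (11 genes, from -0.32 for XIAP to 0.40 for BIRC2). Further well-measured probe sets of the same genes did so in 0 of 13 cases for A-204, 3 of 14 for SK-LMS-1 and 3 of 23 for VA-ES-BJ. In SK-LMS-1 these were XIAP (1.01 on the log2 scale, 4451 with TRAIL against 2206 untreated), MCL1 (0.70) and CFLAR (0.65). In VA-ES-BJ they were a pair of XIAP probe sets (-1.25 and -0.73) and 1 of CASP8 (-0.84).

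**Figure D3:**
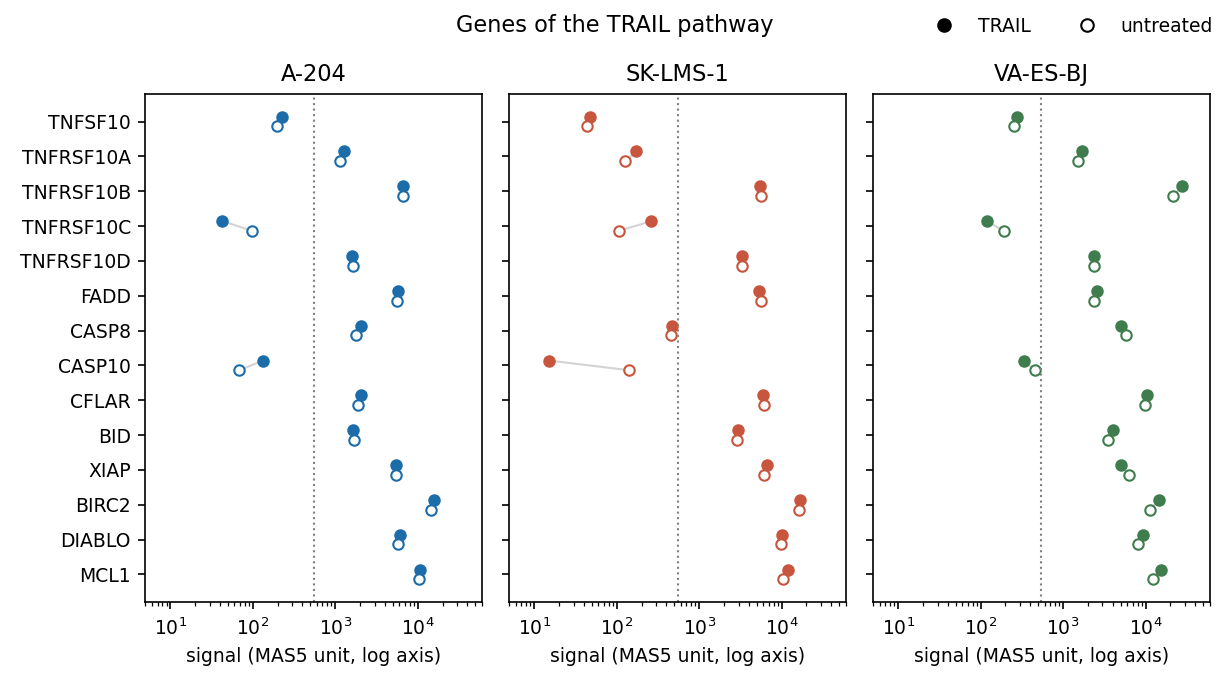
Signals of the 14 tested genes of the TRAIL pathway on each array (log axis), with TRAIL (filled, upper) and untreated (open, lower), in the 3 lines. The dotted line is the limit of 546 for well-measured genes; wide gaps appear only to its left, for TNFRSF10C and CASP10, and those to its right, 1 probe set a gene, stay within 1.5-fold.

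Target genes of NF-kB had a median above that of all genes with TRAIL alone, a difference that was not tested for the group. Of 34 listed targets 29 were tested, 21 were well measured over the 6 arrays, and 0 passed the adjusted threshold. The median change of the 21 was 0.15, against -0.0033 over all well-measured genes. Several of the 21 passed the limit through VA-ES-BJ alone, so directions were counted only where a gene was well measured in the line. In A-204, 14 of 17 such targets were higher with TRAIL, where 49.9% of all genes were, with a median ratio of 0.17. In SK-LMS-1, 10 of 16 were higher, against 41.1% of all genes (median 0.14), and in VA-ES-BJ 16 of 22, against 52.95% (median 0.19). Of the 14 targets well measured in all 3 lines, 5 were higher in each line, 6 in 2 lines, 3 in 1 line and 0 in none, where 1082 of 7643 genes (14.2%) were higher in each. The 5 were NFKBIA, NFKBIE, NFKBIZ, CYLD and LIF.

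NFKBIA, which encodes the inhibitor that holds NF-kB in the cytoplasm and is itself one of its earliest targets, had signals of 2470.1, 3143 and 13163 with TRAIL in A-204, SK-LMS-1 and VA-ES-BJ, against 1715, 2401 and 9202 in untreated cells. It was higher in each line, by 1.44-fold, 1.31-fold and 1.43-fold. Over the 12 arrays its change was 0.48 ± 0.66 (SE), where the spread of all 4 treatments over the 3 lines enters the error. In a fit of the 6 arrays alone the SE was 0.088, with an unadjusted limma p of 0.0070 and an adjusted p of 0.841. LIF, a cytokine of the interleukin 6 family, had 2932, 822 and 6454 with TRAIL, against 2315, 676 and 4843 untreated. Its change of 0.34 had an SE of 0.087 in the 6-array fit (limma, adjusted p = 0.841), and it too was higher in each line.

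The other inhibitors and chemokines gave smaller or less even differences. NFKBIE, a second cytoplasmic inhibitor, had 669, 958 and 3259 with TRAIL, against 577, 889 and 2534 untreated. NFKBIZ, a nuclear regulator of the same family, had 2155, 3627 and 8869 with TRAIL, against 1826, 3233 and 8524 untreated. CYLD, a deubiquitinase that restrains the pathway, was higher by 0.03, 0.11 and 0.27. The neutrophil chemokine CXCL3 was dim in A-204 (162 with TRAIL, 77.7 untreated), and its log2 ratios in SK-LMS-1 and VA-ES-BJ were 0.22 and 0.21. CXCL2, a close relative whose probe set may share transcripts with CXCL3, passed 546 in VA-ES-BJ only (6763 with TRAIL, 5756 untreated). CCL20, a chemokine for lymphocytes, was bright in VA-ES-BJ alone (32374 with TRAIL, 22718 untreated) and near the floor of the array elsewhere, so its direction in A-204 and SK-LMS-1 was not measured. TNFAIP3, another feedback inhibitor, lay at -0.02, -0.09 and 0.18, and CXCL8 at 0.72, -0.08 and -0.21. While 16 of 22 well-measured targets were higher in VA-ES-BJ, others were lower there. These included NFKB2 (-0.54), ICAM1 (-0.35), RELB (-0.32), TRAF1 (-0.31) and JUNB (-0.31). The NFKB2 ratio in SK-LMS-1 was 0.97. TRAF1 was also lower in A-204 and SK-LMS-1, where it was dim.

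**Figure D4:**
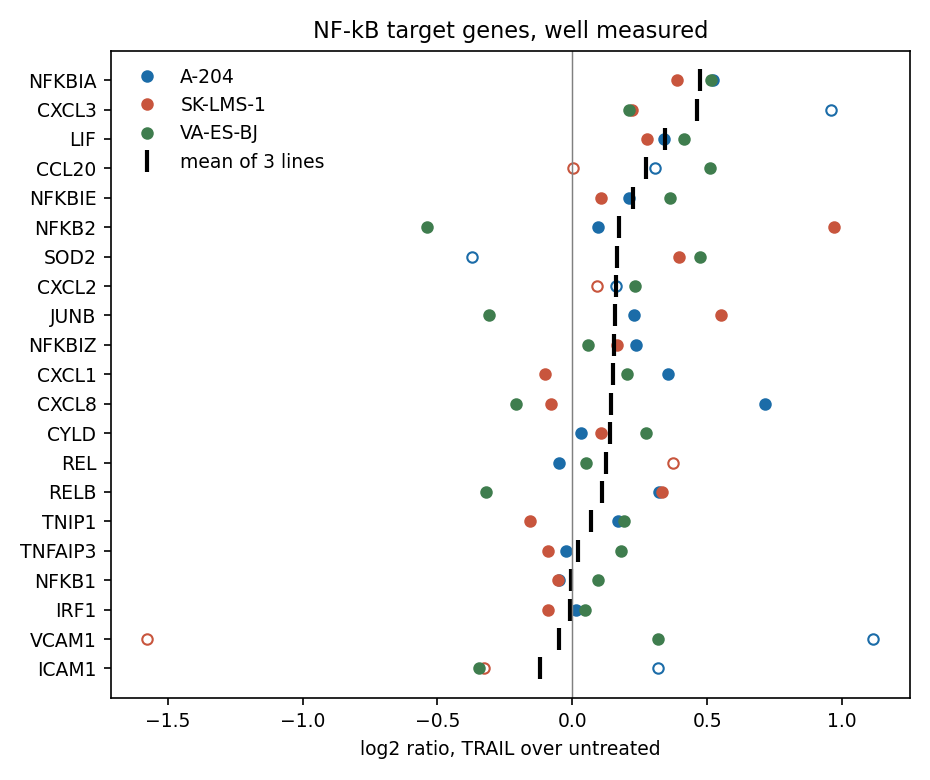
log2 ratio of TRAIL over untreated for the 21 NF-kB target genes that were well measured over the 6 arrays, by line (points, open where the gene was below 546 in that line) with the mean of 3 lines (black bars), sorted by that mean. The mean is above 0 for most members and highest for NFKBIA at 0.48; the widest range is that of VCAM1, whose A-204 and SK-LMS-1 points are open.

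Promoters were read for a kappa-B element, the DNA motif that NF-kB binds. The letters searched were GGGA and TTCC with any 2 bases between them, on both strands, over 250 bases before to 50 after the start of each gene in RefSeq, build GRCh38.p14, and matches on the 2 strands can overlap. They were present in 445 of 27305 promoters (1.63%) and in 182 of 11416 tested genes with a promoter (1.59%). Of 34 listed targets 30 had a promoter in the table and 9 held a match. Of the 5 that were well measured and higher in every line, 3 had a promoter and 2 held a match (NFKBIA and NFKBIZ), a description of genes picked by their direction here. Both are shown with the chemokine genes CXCL2 and CXCL3, whose promoters can be compared, 5′ to 3′ on the strand of the gene, with the matched bases in capitals.
NFKBIA, chr14:35404700-35404999, minus strand: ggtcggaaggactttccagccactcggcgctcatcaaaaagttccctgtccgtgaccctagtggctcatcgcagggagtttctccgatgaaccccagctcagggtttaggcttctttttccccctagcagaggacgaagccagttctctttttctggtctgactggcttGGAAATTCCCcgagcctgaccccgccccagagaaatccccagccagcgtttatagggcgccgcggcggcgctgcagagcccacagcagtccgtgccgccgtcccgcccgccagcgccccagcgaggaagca
NFKBIZ, chr3:101827740-101828039, plus strand: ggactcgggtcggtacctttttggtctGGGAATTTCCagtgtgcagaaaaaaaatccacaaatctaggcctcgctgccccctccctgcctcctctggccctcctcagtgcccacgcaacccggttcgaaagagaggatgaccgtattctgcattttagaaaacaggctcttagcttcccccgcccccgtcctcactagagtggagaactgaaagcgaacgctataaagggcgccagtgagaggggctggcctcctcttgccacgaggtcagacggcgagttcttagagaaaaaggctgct
CXCL2, chr4:74099146-74099445, minus strand: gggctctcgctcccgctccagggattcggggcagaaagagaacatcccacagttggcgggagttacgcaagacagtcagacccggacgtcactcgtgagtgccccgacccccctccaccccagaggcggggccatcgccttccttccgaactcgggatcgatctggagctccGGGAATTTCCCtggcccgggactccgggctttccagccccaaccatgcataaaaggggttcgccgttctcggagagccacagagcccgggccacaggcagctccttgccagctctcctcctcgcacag
CXCL3, chr4:74038640-74038939, minus strand: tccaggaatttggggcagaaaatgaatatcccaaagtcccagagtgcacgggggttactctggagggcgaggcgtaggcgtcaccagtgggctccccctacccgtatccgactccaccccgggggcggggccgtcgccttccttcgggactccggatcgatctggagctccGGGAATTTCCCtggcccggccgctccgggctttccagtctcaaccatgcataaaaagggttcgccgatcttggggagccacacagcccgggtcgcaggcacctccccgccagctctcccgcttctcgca
The match in NFKBIA ends 71 bases before the start, those in CXCL2 and CXCL3 begin a pair of overlapping matches with the first ending 68 and 69 bases before it, and the one in NFKBIZ ends 213 bases before it. Several of these genes are known targets with such elements, and a match says nothing about binding in these cells.

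When TRAIL was added to taurolidine, the medians of the NF-kB targets were slightly below 0. Of targets well measured in that pair, A-204 had 7 of 15 higher with both agents than with taurolidine (median -0.0041), SK-LMS-1 7 of 17 (median -0.08) and VA-ES-BJ 8 of 22 (median -0.03). Over all genes the shares were 46.1%, 48.0% and 55.5%. NFKBIA had 1999, 7942 and 3417 with both agents, against 2215, 8412 and 3758 with taurolidine alone. All 3 of these ratios were below 0 (-0.15, -0.08 and -0.14). The difference between the pairs was not tested for the group.

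Immediate-early genes, which respond first to many stimuli, had a smaller median difference. Of 30 listed, 28 were tested and 21 well measured, with a median change of 0.09 (0.049 under quantile normalisation). Of 17 well measured in all 3 lines, 5 were higher in each, where 1082 of 7643 genes (14.2%) were. Counted by line, 12 of 20 were higher in A-204, 11 of 20 in SK-LMS-1 and 13 of 19 in VA-ES-BJ. Over all genes the shares were 49.9%, 41.1% and 52.95%. With taurolidine on both sides, the medians of the members well measured in that pair were -0.11, -0.03 and 0.02 in these lines. JUN, a component of AP-1, had 2918, 9627 and 7926 with TRAIL, against 2078, 5441 and 6970.2 untreated, a mean change of 0.50 (n = 3). Its SE was 0.57 in the fit to all arrays, where the spread of all treatments over the lines enters the error. A fit of the TRAIL and untreated arrays alone gave JUN an SE of 0.16 (limma, adjusted p = 0.841). A further JUN probe set, well measured in all 3 lines, gave 0.10, 0.16 and 0.23. IER3, an early survival gene, had 6232, 6338 and 15865 with TRAIL, against 4735, 5349 and 12403 untreated. FOS, the partner of JUN in AP-1, was below the limit in all 3 lines. KLF2, a transcription factor gene, went the other way in A-204, with 1018 with TRAIL against 1956 untreated, and this recurred with taurolidine present (1279 with both agents, 2530.3 with taurolidine). Over both pairs its A-204 change was -0.96 ± 0.13 (SE; limma, adjusted p = 0.486), while in SK-LMS-1 and VA-ES-BJ the TRAIL ratios were 0.15 and -0.09.

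The remaining lists held no member past the threshold. In all, 26 lists named 466 genes, of which 395 were tested and 0 called. The medians over well-measured members were 0.01 for the integrated stress response (23 genes), -0.02 for p53 targets (20), 0.01 for interferon-stimulated genes (19), 0.05 for mitosis (28), 0.02 for DNA replication (27) and -0.17 for subunits of the SWI/SNF chromatin remodeller (10). Over all 10, the SWI/SNF medians by line were -0.05, -0.03 and -0.27 for A-204, SK-LMS-1 and VA-ES-BJ. The 10 include SMARCB1, which was dim in VA-ES-BJ. Over the 9 subunits well measured in that line the median was -0.11. CALR, an endoplasmic reticulum chaperone, had 12073, 5194 and 9518 with TRAIL, against 10707, 9103 and 14462 untreated, so this probe set was lower in SK-LMS-1 and VA-ES-BJ and higher in A-204. Of its further probe sets, both well measured in all 3 lines, 1 was higher in SK-LMS-1 (3227 with TRAIL, 2778 untreated). The other was lower there (6123 with TRAIL, 10075 untreated). In VA-ES-BJ both were lower (-1.04 and -0.83), and in A-204 both were higher (0.40 and 0.07). BAX, a pore-forming BCL2 relative, stood out in SK-LMS-1 only, at 1536 with TRAIL against 705 untreated, and its second probe set gave 1.30 on the log2 scale there. In A-204 and VA-ES-BJ the BAX ratios were 0.10 and -0.17. SMARCD1, a chromatin remodelling subunit, had 1276 with TRAIL against 2967 untreated in VA-ES-BJ, and its second probe set gave -0.98. No erythroid marker was well measured over the 6 arrays, and of the leukocyte markers CORO1A alone was, with 1425, 86.0 and 1045 with TRAIL, against 1397, 21.4 and 987 untreated. PTPRC, which defines leukocytes, had 91.1, 49.8 and 5.54 with TRAIL, against 10.4, 125 and 49.1 untreated.

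Across the 3 lines, the well-measured genes with the smallest p and a shared direction were named as the nearest to a common response, none of them passing. TTF2, a factor that ends transcription, had 1763, 2657 and 2086 with TRAIL in A-204, SK-LMS-1 and VA-ES-BJ, against 3136, 3652 and 3764 untreated. The TTF2 change over 3 lines was -0.71 ± 0.12 (SE of the fit to all arrays, limma, adjusted p = 1.00). With taurolidine on both sides the TTF2 ratios were 0.22, 0.53 and 0.15, the opposite direction. AGO2, the slicing enzyme of RNA interference, had 2531, 4608 and 1637 with TRAIL, against 1583, 2949 and 1122 untreated. The AGO2 change was 0.62 ± 0.15 (SE of the same fit, limma, adjusted p = 1.00). Its ratios with taurolidine present were -0.13, 0.28 and -0.25. SREBF2, the master regulator of cholesterol synthesis, had a mean difference of -0.48 ± 0.12, while the median of its pathway list was -0.02. GEMIN8, CAMK1D, GINS4 and SET were the others with higher values (0.46 to 0.82) and SDCBPP2, RPRD2 and SRGAP2C the others with lower ones (-0.62 to -0.37). CAMK1D passed the limit through VA-ES-BJ alone (2292 with TRAIL, 1813 untreated), and its A-204 signals were 147 with TRAIL and 62.8 untreated. Several of these values depended on the probe set. When the probe sets of a gene were averaged, GEMIN8 lay at -0.0087, CAMK1D at -0.17, GINS4 at 0.044, TTF2 at -0.31, RPRD2 at -0.24 and SREBF2 at -0.19. Without A-204 the GINS4 value was 0.43, against 0.82 over 3 lines.

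A-204 gave the shortest list of single genes. GINS4, a subunit of the replicative helicase, had 1185 with TRAIL against 381 untreated. GNAO1, a G protein subunit, had 849 against 281, PLEKHG2, an exchange factor for small GTPases, 788 against 308, and PRKCD, protein kinase C delta, 838 against 343. TRIM6, a ubiquitin ligase, was the only fall of 2-fold, at 409 with TRAIL against 841 untreated. The untreated signals of the 6 rising genes had a median of 344, and none of the 7 genes had a second well-measured probe set. PRKCD and PLEKHG2 were also higher with both agents than with taurolidine, by 1.07 and 0.86, but PRKCD was below 546 there (314 with both agents, 144 with taurolidine). The PRKCD ratio of SK-LMS-1 was -0.02 and that of VA-ES-BJ -0.56.

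In SK-LMS-1 nearly all 2-fold differences were rises. ZNF451, a SUMO ligase, had 3114 with TRAIL against 519.7 untreated, a 5.88-fold difference. MED1, a Mediator subunit, had 5398 against 1198, FCF1, a ribosome assembly factor, 2009 against 452, AKAP13, a kinase anchor protein, 2021 against 487, and RSBN1 1639 against 445. The long non-coding RNAs MALAT1 (1576 against 576) and TUG1 (9011 against 4151) and the kinesin gene KIF5B (18251 against 6123) were among the 50 as well, and are named after their values were seen. Other probe sets of the same genes often gave another answer. Of 38 rising genes with a further well-measured probe set, 19 had all of them higher and 10 had any that was 2-fold higher. The second ZNF451 probe set read 1651 with TRAIL and 1912 untreated, and the further KIF5B probe sets gave -0.20 and -0.12. Counted singly, 272 probe sets were 2-fold higher and 15 lower in SK-LMS-1. Probe sets for ribosomal RNA were also higher on the TRAIL array of this line, by 1.04 on average over 6 probe sets, and their part in the result was not tested.

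The falls in SK-LMS-1 were few. TRMT2B, a transfer RNA methyltransferase, had 548 with TRAIL against 1559 untreated, and EEF2KMT, a methyltransferase of an elongation factor, had 643 against 1362. GNAO1 had 555 with TRAIL against 1145 untreated in this line, the reverse of A-204. Its ratio remained below 0 in SK-LMS-1 with taurolidine present (154 with both agents, 527 with taurolidine), where it was dim. RPL7AP10 and BTF3P12 are pseudogenes, and their probe sets may detect the parent genes.

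In VA-ES-BJ 17 of 20 2-fold differences were lower with TRAIL, a split that depended on the scaling. With the controls added to total RNA set equal there were 9 higher and 11 lower, and with equal array medians 5 higher and 11 lower. RAB11B, a GTPase of recycling endosomes, had 531 with TRAIL against 1703 untreated, and its second probe set gave -0.95. ATN1, a transcriptional corepressor, had 709 against 1794, with -1.11 from its second probe set. SPINDOC had 474 against 1238, EPB41L1, a membrane skeleton protein, 509.5 against 1304, and MATR3, a nuclear matrix protein, 409 against 1056. All 5 falling genes that had further well-measured probe sets were lower in each of them. MATR3 was lower with taurolidine present too, at 149 with both agents against 585 with taurolidine, but its mean in that pair was below 546. HLA-F-AS1, an antisense RNA, was the largest rise, at 1814 with TRAIL against 677 untreated, followed by FKBP2, an endoplasmic reticulum isomerase (2241 against 1077), and SLC25A37, the iron importer of mitochondria (3602 against 1757).

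VA-ES-BJ also showed a shared shift of its brightest transcripts. Of 13 well-measured cytosolic ribosomal protein genes, 12 were 1.5-fold or more higher with TRAIL, where 1.60% of all well-measured genes of the line were, and their median ratio was 0.66. RPS23 had 77083 with TRAIL against 44877 untreated, and RPL30 68271 against 41192. A further, dimmer RPS23 probe set was lower in this line (2169 with TRAIL, 2535 untreated). A further RPS19 probe set was higher (69753 with TRAIL, 42378 untreated). Over the 13 genes the A-204 median was 0.0071 and the SK-LMS-1 median 0.047. HSP90AA1, a cytosolic chaperone, had 65315 against 35592 in VA-ES-BJ, and CYCS, cytochrome c, 54118 against 35197. When the arrays were given equal distributions of signal (quantile normalisation), the ribosomal median of VA-ES-BJ was 0.0036, that of heat shock genes 0.024 in place of 0.29, and that of oxidative phosphorylation genes 0.067 in place of 0.29. The NF-kB median over lines was 0.16 under that scaling. Hybridisation controls, bacterial RNAs added before hybridisation, were higher by 1.07 on the VA-ES-BJ TRAIL array, and ribosomal RNA probe sets by 1.40, while controls added to the total RNA differed by -0.13. In A-204 the 3 values were -0.35, -0.20 and -0.08, and in SK-LMS-1 0.02, 1.04 and -0.07. The ratio of 3′ to 5′ signal of GAPDH, a sign of intact RNA, differed by at most 0.11 on the log2 scale in any line.

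The lines had little of their response in common. Over 7643 genes well measured in all 3 lines, 447 differed by 1.5-fold or more in some line, 13 did so in the same direction in 2 lines, 18 in opposite directions, and 0 in all 3. At 2-fold, 66 did so in some line and SLC25A37 alone in 2 lines, its ratio being 0.42 for A-204, 1.00 for SK-LMS-1 and 1.03 for VA-ES-BJ. In VA-ES-BJ the 5 other SLC25A37 probe sets lay between -0.22 and -0.08, and in SK-LMS-1 between -0.88 and 1.19. Across these genes the log2 ratios of 2 lines correlated at 0.20 (A-204 and SK-LMS-1), 0.086 (A-204 and VA-ES-BJ) and 0.058 (SK-LMS-1 and VA-ES-BJ). These correlations are across genes, which are not independent, and arrays share their scaling.

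The pair with taurolidine gave a second look at TRAIL on 6 other arrays, and few of the single-line differences came back. Of genes well measured in both pairs that differed by 2-fold or more with TRAIL alone, none did so again in the same direction: 0 of 5 for A-204, 0 of 53 for SK-LMS-1 and 0 of 19 for VA-ES-BJ. At 1.5-fold, 2 of 57, 9 of 214 and 7 of 302 did, and 4, 7 and 6 passed 1.5-fold in the opposite direction. Of all genes well measured in the pair with taurolidine, 2.60%, 0.987% and 1.09% differed by 1.5-fold or more either way. Across all genes well measured in both pairs the 2 ratios correlated at -0.013 (A-204), 0.050 (SK-LMS-1) and -0.13 (VA-ES-BJ), again a description across genes. The 50 rises of SK-LMS-1 kept a small remainder: 41 were higher with both agents than with taurolidine, where 48.0% of all well-measured genes were, with a median ratio of 0.20 in place of 1.35. Of the 17 falls of VA-ES-BJ, 3 were lower again, and their median was 0.20 in place of -1.20. Taurolidine changed many genes itself, so a different effect of TRAIL in its presence and scatter of single arrays cannot be told apart here.

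**Figure D5:**
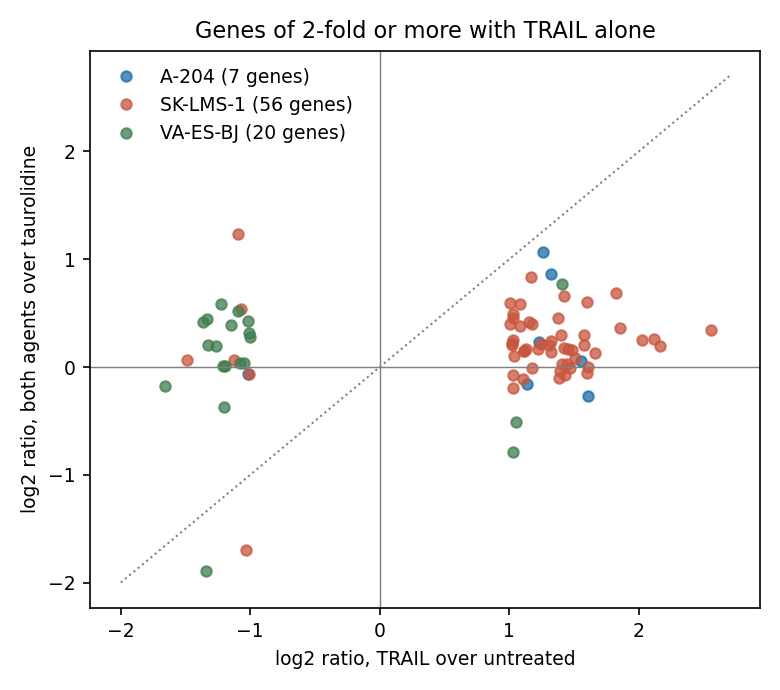
Genes of 2-fold or more with TRAIL alone in a line (7 in A-204, 56 in SK-LMS-1, 20 in VA-ES-BJ): log2 ratio of TRAIL over untreated (x axis) against log2 ratio of both agents over taurolidine (y axis) in the same line. The dotted line marks equal ratios; most points lie near 0 on the y axis, with a median of 0.20 for the SK-LMS-1 rises.

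Tests that pooled both pairs also called nothing. Over 6 pairs limma called 0 of 14221 genes (0%), with 546 at an unadjusted p under 0.05. With the controls added to total RNA set equal, 0 were called and 2296 had an unadjusted p under 0.05, the smallest adjusted p being 0.309. For each line over its 2 pairs, with 3 residual degrees of freedom, 0 genes were called in A-204 (0%), SK-LMS-1 (0%) and VA-ES-BJ (0%), with 683, 745 and 610 at an unadjusted p under 0.05. The smallest adjusted p-values were 0.155, 0.133 and 0.131. The limma test that the TRAIL effect differed between lines called 0 genes (0%), with 729 at an unadjusted p under 0.05. The genes of smallest p in these fits were mostly dim in the line concerned. ANO5, a membrane scramblase relative, had 71.1 with TRAIL against 9.83 untreated in A-204. CCM2L, a gene of vascular development, had 13.0 with TRAIL against 106 untreated in SK-LMS-1, and TNC, an extracellular matrix protein, had 11.3 against 56.8 in VA-ES-BJ. All these signals are below the table median of 136.5. The LITAF probe set with a ratio of 2.22 in SK-LMS-1 (177 with TRAIL, 29.0 untreated) had a partner probe set at -1.92 on the same arrays.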

How the data were processed

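Human soft tissue sarcoma cells were profiled on Affymetrix arrays, and the deposited table holds array intensity on a linear scale for 54675 probe sets and 12 arrays. MAS5 is named for these deposited intensity values per the submitters' processing notes, with no version. MAS5 scales each array to a common mean, so a change in total messenger RNA per cell is not visible. The detection calls are not used here.

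Probe sets above the table median (136.5) on at least 3 arrays were tested, the one of highest mean over 12 arrays standing for a gene, which left 14221 genes. Gene names came from the platform annotation, which gave 41097 probe sets 1 gene, 1801 several and 11777 none listed; the Entrez number of 41043 gave the current symbol. Values entered as log2(signal + 11.8), so changes of dim genes are understated. limma 3.58.1 in R 4.3.3 fitted cell line and treatment over all 12 arrays (6 residual degrees of freedom), with Benjamini-Hochberg adjustment over all genes and a threshold of 0.05. Further fits took TRAIL over 6 pairs, within each line over 2 pairs, and a test of the difference between lines. All p-values rest on the variation among these 12 arrays, which may be technical, and precision is limited by their number.

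Pairing came from the cell line; deviations of the 2 arrays of a line from their group means correlated at 0.908 (A-204), 0.894 (SK-LMS-1) and 0.908 (VA-ES-BJ). The members and gene lists were chosen with earlier results of these data known. Genes were named as the 5 rises and 5 falls of smallest p over the lines among well-measured genes with a shared direction, the 5 largest rises and falls per line, the 5 of smallest p per line, 22 genes of TRAIL signalling, and up to 3 per list. Alternatives changed the constant, filter, probe set rule, scaling, moderation, pairing and replicates. The procedure was tested on simulated data.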

Additional observations from a re-analysis of the deposited data

Results flagged for a closer look

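GNAO1 stood out because 2 lines moved in opposite directions by 2-fold or more among well-measured genes. Its log2 ratio of TRAIL over untreated was 1.56 in A-204 (849 with TRAIL, 281 untreated) and -1.03 in SK-LMS-1 (555 with TRAIL, 1145 untreated). In VA-ES-BJ it was below the limit, at 82.9 with TRAIL and 288 untreated. Over both pairs of each line, the limma test of a difference between lines gave GNAO1 an adjusted p of 0.757. With taurolidine present the ratio in A-204 was 0.05 (832 with both agents, 801 with taurolidine), so the rise did not recur there. A difference within the single pairs with TRAIL alone was not tested, since each rests on 1 array a side. No second well-measured probe set was there to set beside it.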

How the results depend on the processing

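The count of 0 genes over 3 lines and over 6 pairs held under every alternative run. Without the replicate block (no term for the cell line) both counts were 0, with 116 and 78 genes at an unadjusted p under 0.05, against 563 and 546 with it. Setting the controls added to total RNA equal gave 0 over 6 pairs, with 2296 at an unadjusted p under 0.05. Leaving out 1 line at a time gave 0 to 0 genes in each test, and 436 to 632 at an unadjusted p under 0.05 over the lines left. The 6 arrays alone gave 0 genes, with 684 at an unadjusted p under 0.05.

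Tests within a line called few genes under other settings. A constant of 1 gave 1 gene in A-204. A test of bright genes only gave A-204 2 genes, SK-LMS-1 6, VA-ES-BJ 3 and the difference between lines 1. Error moderation with a trend gave 1, 1, 4 and 2, and its robust form also 1, 1, 4 and 2. The genes called were below 546 in the line concerned (WNT5B, LITAF, TNC and TLE4 among them). The cause was not tested.

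The 2-fold counts per line moved with the brightness limit. At 2 times the median A-204 had 25, SK-LMS-1 96 and VA-ES-BJ 48, and at 8 times A-204 had 1 and VA-ES-BJ 12. Counting every probe set gave 24, 287 and 79, averaging the probe sets of a gene 40 in VA-ES-BJ, and a constant at the table median 13 in VA-ES-BJ. Quantile normalisation left 7, 57 and 24. Averaging probe sets turned GEMIN8 to -0.0087 and CAMK1D to -0.17, and moved GINS4 to 0.044, TTF2 to -0.31, RPRD2 to -0.24 and SREBF2 to -0.19.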

Other observations

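Probe sets that the platform annotation gives no single gene showed the same lean in SK-LMS-1. Of 1654 such well-measured probe sets, 39 were 2-fold higher and 5 lower with TRAIL, and of 14707 with 1 gene 233 were higher and 10 lower. In VA-ES-BJ those counts were 4 higher and 7 lower of 1808, and 6 higher and 62 lower of 15147.

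Genes that were 1.5-fold higher with TRAIL in VA-ES-BJ had a median untreated signal of 31910.2, against 2585 for all well-measured genes of the line. Their promoters held 62.7% G and C at the median (116 of 143 genes with a promoter in RefSeq), against 65.7% over all well-measured genes. In A-204 and SK-LMS-1 the corresponding rises had untreated medians of 812 and 1054.

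The probe sets of a gene agreed little on the size of small changes. Across genes with a second well-measured probe set, the 2 log2 ratios correlated at 0.16 in A-204 (3908 genes), 0.12 in SK-LMS-1 (3820 genes) and 0.31 in VA-ES-BJ (3936 genes). Genes are not independent, and the probe sets of a gene share an array.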
